A study of Mus musculus with 24 samples.

Results

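The clustered protocadherins are neuronal cell-surface adhesion proteins encoded in 3 neighbouring gene clusters, alpha, beta and gamma, on mouse chromosome 18. All rows of the hippocampal expression table whose symbol names a member of these clusters were taken, which gave 58 of the 21793 rows. They comprise 14 alpha rows (12 alternate and 2 C-type), 22 beta rows and 22 gamma rows (12 of subfamily A, 7 of subfamily B and 3 of subfamily C). Pcdhga11, a gamma A member, was singled out because earlier results of these data had shown a difference by genotype, so its difference is described here and is not independent evidence. Symbols and positions of 56 members were matched to GENCODE M21 on GRCm38, where the clusters lie on the plus strand between bases 36930184 and 37841873 of chromosome 18, a span of 912 kb. The other 2 rows, Pcdha11 and Pcdha11.1, carry a name that 2 annotated genes share and were given no position.

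Each clustered protocadherin has its own large variable exon with its own promoter, and a single neuron switches on only a few of the alternate promoters, largely by chance. The resulting combination acts as an identity label, since the proteins bind matching partners on other cells and let a neuron tell its own branches from those of its neighbours. Alpha and gamma variable exons are spliced to constant exons that encode a common cytoplasmic tail for each cluster, whereas beta genes are single-exon genes without one. The C-type members, which lie at the ends of the alpha and gamma clusters, are switched on more uniformly from neuron to neuron than the alternate members.

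Polyadenylated RNA from the whole hippocampus of 24 female mice was sequenced, 1 library per mouse, in 6 groups. The controls were B6129SF2/J mice (WT), and the others were 3xTg-AD mice (3xTg), a model of Alzheimer's disease that carries human APP and MAPT transgenes under the neuronal Thy1 promoter cassette, among its alleles. The strains are bred separately, so the transgenes and other differences between the strains cannot be told apart. The feeding period began at an age of 3 months and lasted 6 months, on 3 diets. Mice given the control diet (4 WT, 3 3xTg) received 70% carbohydrate, 20% long-chain triglycerides and 10% protein. The ketogenic diet (4 WT, 5 3xTg) held 90% long-chain triglycerides and 10% protein with no carbohydrate. The MCT diet (4 WT, 4 3xTg) held 70% carbohydrate and 10% protein, with the fat split into 10% long-chain and 10% medium-chain triglycerides. A mouse is named below by genotype, diet and replicate number.

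Libraries held 10078435 to 25810846 reads, except for 3xTg ketogenic replicate 2 with 2653427, and the clustered protocadherins took 0.0568% to 0.0739% of the reads. Thy1, whose cassette drives the transgenes, checked the genotype labels: its normalised count was 6952 to 8137 in 11 WT libraries and 20385 to 29277 in 10 3xTg libraries. The other 3 libraries went against their labels: the library labelled WT MCT replicate 2 had 23048, that labelled 3xTg control replicate 3 had 9189 and that labelled 3xTg ketogenic replicate 1 had 8112. All 24 libraries were kept under their labels, and counts of members called by genotype, the differences of the members called and the cluster sums are also given without these 3 (21 libraries). Of 14 marker lists of hippocampal and neighbouring cell types, no list had a gene at 0 in every library. The summed general neuronal markers ranged from 88540 to 98008 in WT and from 89378 to 95286 in 3xTg, and 1 of 5 was called lower. Of the 5 dentate granule cell markers, 2 were called lower in 3xTg (Prox1 and C1ql2), with sums of 5619 to 7903 in WT and 5694 to 6892 in 3xTg. Choroid plexus markers reached 12636 in WT and 791 in 3xTg with 0 called, and 2 of 5 oligodendrocyte markers were called higher (sums of 47965 to 79073 in WT and 59497 to 79738 in 3xTg). Of the remaining lists, genes were called higher and lower in 1 and 1 of 6 for pyramidal cells, 2 and 0 of 7 for GABAergic interneurons, 0 and 0 of 4 for oligodendrocyte precursors, 2 and 0 of 5 for astrocytes, 1 and 0 of 4 for microglia, 0 and 2 of 4 for endothelial cells and 0 and 1 of 6 for striatum. Ependymal, meningeal and serotonergic markers had 0 called. Over the 14 lists, 15 of 65 tested markers were called (8 higher, 7 lower), or 23.1%, against 8.1% of all tested genes, and 16 without the 3 libraries (8 higher, 8 lower), against 13.2%. The part of these cell types in the results below was not tested.

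Values are normalised counts, which are gene counts divided by 1 factor per library. They describe the bulk tissue, in which fewer cells of a type and less RNA per cell cannot be told apart. The exons that all alpha transcripts share cover 2860 bases and those of gamma 2119 bases. A read there belongs to no single member, and how such reads were counted is not given in the sources used here. Levels between members are compared per kilobase of the member's own exon. If reads in the shared exons were counted, this does not remove them, and alpha and gamma levels would be raised beside those of beta. Own exons also resemble each other: between 0% and 23.4% of a member's 50-base words occurred in another member, with a median of 3.48% over 56 members. Words of alternate alpha members with a position also occurred in genes outside the clusters, from 4.12% (Pcdha8) to 83.0% (Pcdha4). In beta and gamma the highest such share was 15.1% (Pcdhgc5). Values of the most similar members are uncertain for this reason.

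Per kilobase of own exon, 3 of the 5 C-type members had the highest levels of the 56 with a known position. Pcdhgc3, which takes part in dendrite branching, stood at 233 normalised counts per kb and Pcdhgc5, a partner of GABA-A receptors, at 184 per kb. Pcdhac2, which serotonergic axons need to space themselves, stood at 146 per kb. The other C-type members, Pcdhac1 at 17.3 and Pcdhgc4 at 33 per kb, lay among the alternate members. Among the alternate members the order continued with Pcdhb9 at 96.1 per kb, Pcdhga6 at 81.3 and Pcdhga11 at 81.2. The last 2 differed by less than their spread between libraries, which for Pcdhga11 includes a difference between genotypes. In the 21 libraries, normalised counts of Pcdhga11 were 292 to 403 in WT and 39.1 to 84.6 in 3xTg. The rank of Pcdhga11 therefore holds only for the mean over both genotypes. At the other end were Pcdha4 at 0.693 per kb, Pcdha8 at 1.96, Pcdha1 at 4.60 and Pcdhb1 at 5.03. Pcdhga6, Pcdha8 and Pcdha1 are given here for their rank, chosen after their values were seen.

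**Figure D1:**
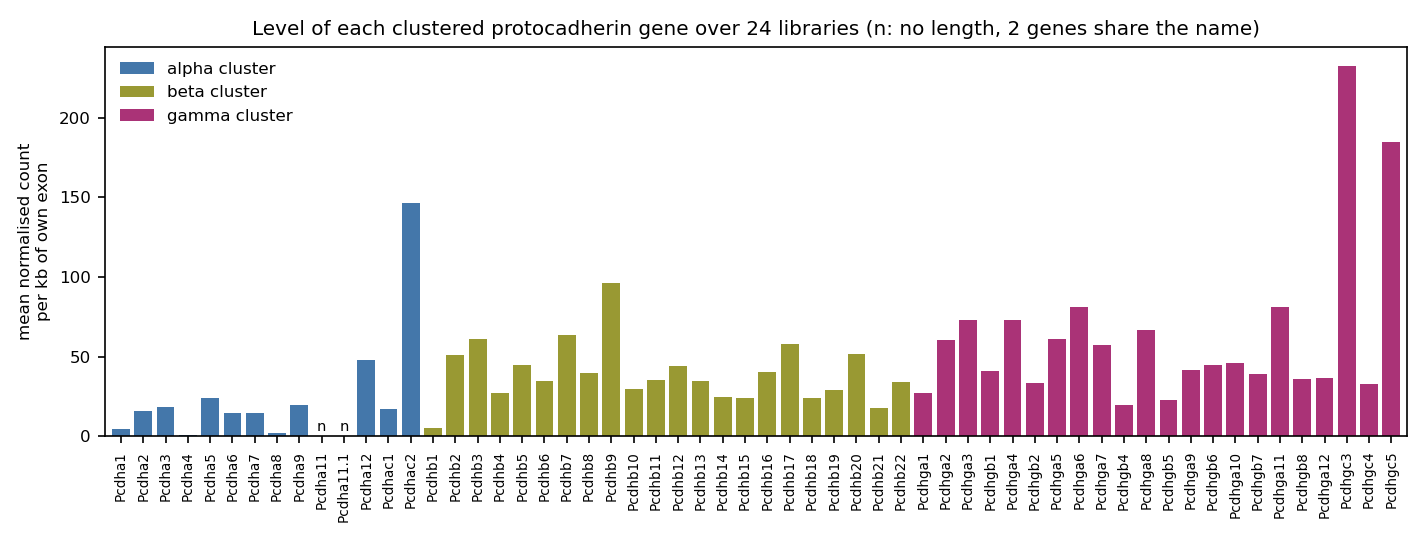
Mean normalised count per kilobase of own exon over the 24 libraries for the 56 members with a known position (bars, linear axis from 0), in their order along chromosome 18; n marks the 2 rows without one. C-type members Pcdhgc3 (233), Pcdhgc5 (184) and Pcdhac2 (146) stand highest and Pcdha4 (0.693) lowest.

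In the alpha cluster the mean normalised count over 24 libraries ran from 2.01 for Pcdha4 to 118.5 for Pcdha12 among the alternate members. Pcdha4 and Pcdha8 (mean 4.87) did not reach a normalised count of 10 in 3 libraries and were not tested, which left 12 of 14 alpha, 22 of 22 beta and 22 of 22 gamma members. Most of the own exon of Pcdha4 (2500 of 2904 bases) also lies in other annotated genes, Gm38225 and Gm42416, so its low value is uncertain. Pcdhac1, the C-type member next to Pcdhac2, had a mean of 44.3, and Pcdhac2 alone held 44.6% ± 2.33 (SD, n = 24) of the alpha sum. In the beta cluster the means ran from 13.0 for Pcdhb1 to 294 for Pcdhb9. In gamma A they ran from 88.2 for Pcdhga1 to 214 for Pcdhga11, and in gamma B from 71.2 for Pcdhgb4 to 114 for Pcdhgb6. These means pool both genotypes, between which Pcdhga11 and Pcdhgb6 differ, as given below. Pcdhgc4, whose loss costs neurons their survival, had a mean of 114.6. Pcdhgc3 held 17.5% ± 0.99 and Pcdhgc5 22.6% ± 1.81 (SD, n = 24) of the gamma sum. Shares of a cluster sum are of counts not scaled by exon length, and per kilobase Pcdhgc3 stood above Pcdhgc5.

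Summed over members, gamma gave 50.1% of the normalised counts of the clustered protocadherins, beta 38.9% and alpha 11.0%. These shares are not per kilobase of own exon and do not rank the levels of the clusters. The alpha sum was 999 ± 90.4 normalised counts in WT and 983 ± 58.2 in 3xTg (SD, n = 12 each), a ratio of 0.983. It ranged from 838 in WT ketogenic replicate 3 to 1169.7 in WT ketogenic replicate 1, so that WT libraries set both ends. The beta sum was 3571 ± 357 in WT and 3416 ± 299 in 3xTg, a ratio of 0.957. The gamma sum was 4709 ± 357 in WT and 4294 ± 325 in 3xTg, a ratio of 0.912. The ratios with 21 libraries were 0.973, 0.938 and 0.886. The ranges of WT and 3xTg overlapped in all 3 clusters, and these sums were given no test.

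By diet, the gamma sum in WT was 4888 ± 334 on control, 4728 ± 333 on ketogenic and 4511 ± 387 on MCT diet (SD, n = 4 each). In 3xTg it was 4297 ± 357 (n = 3), 4304 ± 444 (n = 5) and 4279.8 ± 198 (n = 4). The beta sum was 3588 ± 490.2, 3579 ± 457 and 3545 ± 128 in WT and 3386 ± 185, 3602 ± 339 and 3206 ± 184 in 3xTg, in the same order of diets. The alpha sum stayed between group means of 970.3 and 1016.

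Within gamma, subfamily B had the lowest ratio of 3xTg to WT, 0.789 (762 ± 114 in WT, 601 ± 91.0 in 3xTg). Subfamily A had 0.907 (1996 ± 189 and 1809 ± 167) and subfamily C 0.965 (1951 ± 145 and 1883 ± 123). With 21 libraries these ratios were 0.732 for B, 0.874 for A and 0.960 for C. Pcdhga11 alone accounted for 53.1% of the difference of 415 normalised counts between the gamma sums, Pcdhgb6 for 19.8% and Pcdhgc3 for 16.5%. Pcdhga4 moved the other way by 15.5% of it, and the remaining members went in both directions. The mean of Pcdhga11 was 220 normalised counts lower in 3xTg, a larger gap than that of the gamma A sum. The sum of the other gamma A members was therefore not lower in 3xTg. With 21 libraries Pcdhga11 was lower by 290.5, again more than the gamma A sum. Pcdhga11 made up 16.1% ± 4.58 of the gamma A sum in WT and 5.52% ± 5.11 in 3xTg (SD, n = 12 each). In the 21 libraries the shares were 17.3% ± 1.41 (n = 11) and 3.39% ± 0.85 (n = 10), and Pcdhga11 accounted for 53.6% of a gamma difference of 542.

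**Figure D2:**
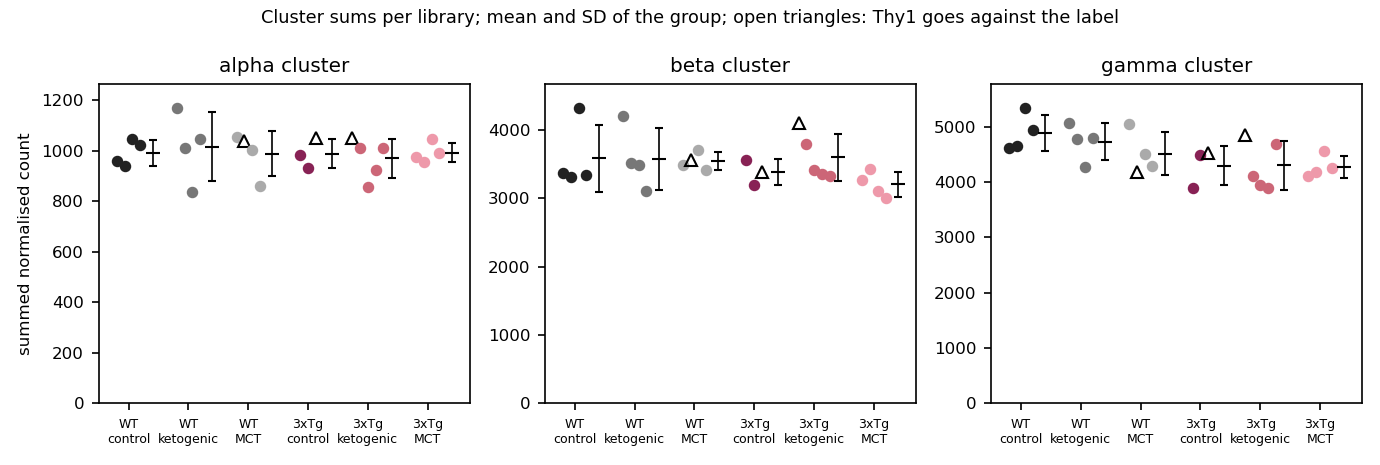
Summed normalised counts of the alpha, beta and gamma clusters per library (points, with open triangles where Thy1 goes against the label) in the 6 groups, with group means and SD (bars). Libraries of WT and 3xTg overlap in each cluster, with the gamma means at 4709 in WT and 4294 in 3xTg.

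The first comparison was between genotypes, averaged over the 3 diets. Of the 56 tested members, 8 passed the threshold (limma, adjusted p under 0.05, Benjamini-Hochberg over all 14162 tested genes), 2 of them higher and 6 lower in 3xTg. These were 4 of 22 beta members (Pcdhb1 higher; Pcdhb6, Pcdhb7 and Pcdhb13 lower) and 4 of 22 gamma members (Pcdhga4 higher; Pcdhga3, Pcdhgb6 and Pcdhga11 lower), with 0 of 12 alpha members. The share called was 14.3% of members, against a background of 8.1% of all tested genes (3.71% higher and 4.38% lower). On the recovered reads edgeR called 8 of 56 members, against 8.57% of genes, and DESeq2 10 of 56, against 10% of genes. At an unadjusted p under 0.05 there were 21 of 56 members, against 24.4% of all tested genes. The median log2 difference was -0.02 for alpha, -0.01 for beta and -0.09 for gamma, with a median near 0 over all tested genes. The median absolute log2 difference of members was 0.155, against 0.068 over all tested genes, and the sign was positive for 24 and negative for 32. These 2 medians were not matched for abundance or for spread. Members with a mean of 50 to 400 spread more within groups than other genes in that range, as given below. All 7 gamma B members had a log2 difference below 0 with 24 libraries (median -0.21), although only Pcdhgb6 passed the test, and 1 of the 7 was above 0 with 21 libraries.

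**Figure D3:**
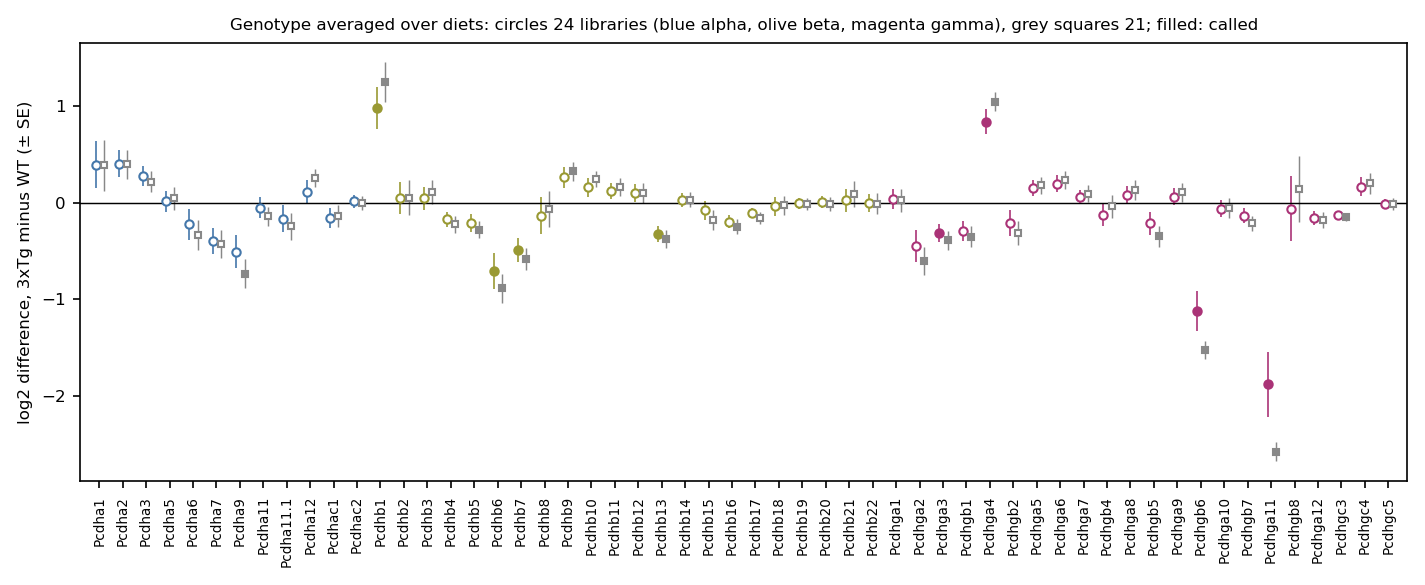
Log2 difference of 3xTg minus WT averaged over diets, with its standard error, for each of the 56 tested members in genomic order, with 24 libraries (circles) and with 21 (grey squares), filled where called. Pcdhga11 and Pcdhgb6 reach the lowest values and Pcdhb1 and Pcdhga4 the highest.

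Pcdhga11 encodes a gamma A adhesion protein, with a gene that spans bases 37755731 to 37841873 of chromosome 18 and an own exon of 2637 bases. Of those, 1381 overlap Gm26672, annotated on the other strand, and without knowing whether the counting used strand their reads cannot be told apart. None of its 2588 words of 50 bases occurred in another member (0 of 2588). In WT on control diet, its normalised counts were 321, 340.4, 337 and 360.2. In WT on ketogenic diet they were 373, 384, 292 and 403, and on MCT diet 399, 37.5, 336 and 307. The low value of 37.5 is that of the library labelled WT MCT replicate 2, and the other 11 WT libraries all held 292 or more. In 3xTg the values were 55.1, 55.4 and 351 on control diet, 299, 75.6, 48.7, 77.6 and 84.6 on ketogenic diet, and 45.9, 51.3, 63.5 and 39.1 on MCT diet. The high values of 351 and 299 are those of the libraries labelled 3xTg control replicate 3 and 3xTg ketogenic replicate 1, the remaining libraries whose Thy1 went against the label. The groups overlap through these 3 libraries.

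The mean of Pcdhga11 was 324 ± 96.8 in WT and 104 ± 105 in 3xTg (SD, n = 12 each). The difference was -1.88 ± 0.34 (log2 of normalised count + 1, SE) with an adjusted p of 0.00178 in limma, and 11 of 12 3xTg libraries lay below the WT mean. Without the 3 libraries, the difference was -2.58 ± 0.10 with an adjusted p of 1.37e-14 in limma. Pcdhga11 was singled out for its genotype difference in these same data, so neither p-value is independent evidence. The 3 libraries were set apart by Thy1, which ran opposite to Pcdhga11 (Pearson's r = -0.96), so leaving them out removes the contrary values.

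Pcdhgb6, a gamma B member whose variable exon lies upstream of that of Pcdhga11 (gene from base 37742094), was lower in the same libraries. Its values in WT were 192, 149.9, 175 and 142 on control diet, 161, 165, 166 and 172 on ketogenic diet and 198, 45.2, 143 and 149.8 on MCT diet. In 3xTg they were 55.1, 51.8 and 165 on control diet, 134, 54.0, 78.0, 44.7 and 69.2 on ketogenic diet, and 58.5, 58.1, 50.8 and 56.7 on MCT diet. Again the libraries labelled WT MCT replicate 2, 3xTg control replicate 3 and 3xTg ketogenic replicate 1 were the ones on the other genotype's side. Means were 155 ± 38.8 in WT and 73.0 ± 37.3 in 3xTg, and 11 of 12 3xTg libraries lay below the WT mean. The log2 difference was -1.12 ± 0.21 (limma adjusted p = 0.00212), and -1.52 ± 0.09 (adjusted p = 7.14e-11) without the 3 libraries. Of its 50-base words, 11.9% occurred in another member.

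Pcdhga4, another gamma A member (gene from base 37685210), was higher in 3xTg. In WT it had 63.1, 70.0, 107 and 64.5 on control diet, 83.7, 78.3, 74.7 and 66.6 on ketogenic diet and 68.2, 161, 83.1 and 68.4 on MCT diet. In 3xTg it had 161, 143 and 92.5 on control diet, 109, 129.6, 176, 145 and 188 on ketogenic diet and 158, 147, 164 and 144 on MCT diet. All 12 3xTg libraries lay above the WT mean of 82.4 ± 27.6, and the overlap came from the libraries labelled WT MCT replicate 2 (161) and 3xTg control replicate 3 (92.5). The 3xTg mean was 147 ± 26.8. The log2 difference was 0.84 ± 0.13 (limma adjusted p = 0.000485), and 1.05 ± 0.09 (adjusted p = 5.08e-08) without the 3 libraries.

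Pcdhb1, the first gene of the beta cluster (bases 37264938 to 37267525), was the least abundant beta member and was higher in 3xTg. Its values in WT were 10.2, 7.0, 12.2 and 7.17 on control diet, 12.4, 6.77, 5.82 and 10.3 on ketogenic diet and 6.57, 14.3, 7.36 and 2.01 on MCT diet. In 3xTg they were 18.7, 14.5 and 6.68 on control diet, 15.3, 16.2, 16.6, 23.5 and 18.3 on ketogenic diet and 21.6, 19.7, 19.8 and 19.5 on MCT diet. The highest WT value (14.3) and the lowest 3xTg value (6.68) belonged to libraries against their Thy1 label. Means were 8.51 ± 3.44 in WT and 17.5 ± 4.30 in 3xTg, with 11 of 12 3xTg libraries above the WT mean. The log2 difference was 0.98 ± 0.22 (limma adjusted p = 0.00752), and 1.25 ± 0.20 (adjusted p = 0.000195) without the 3 libraries. On this scale the difference of so low a gene is understated.

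**Figure D4:**
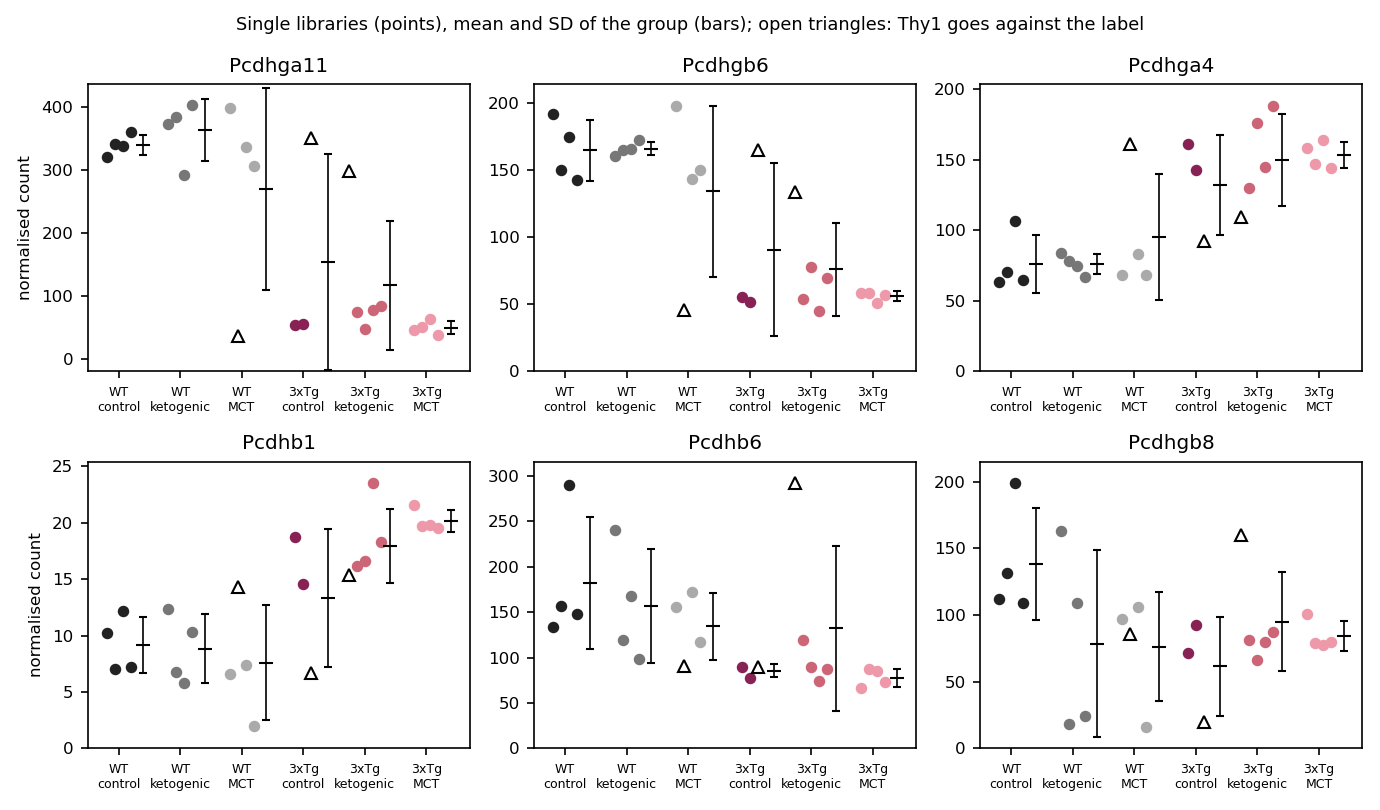
Normalised counts per library (points) of Pcdhga11, Pcdhgb6, Pcdhga4, Pcdhb1, Pcdhb6 and Pcdhgb8 in the 6 groups, with group mean and SD (bars) and open triangles for the 3 libraries whose Thy1 goes against the label. For Pcdhga11 and Pcdhgb6 the triangles sit on the side of the other genotype.

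The other beta members that passed, all lower in 3xTg, are cell-surface adhesion proteins without the constant tail. Pcdhb6 had a lowest, median and highest value of 90.5, 152 and 289.8 in WT (mean 158 ± 57.5) and had a mean of 103 ± 61.2 in 3xTg, where the library labelled 3xTg ketogenic replicate 1 stood at 292 and the other 11 at 119 or less. Its log2 difference was -0.70 ± 0.19 (limma adjusted p = 0.0209). Pcdhb7 had a lowest, median and highest value of 195, 247 and 397 in WT (mean 259 ± 59.0) and of 144, 175 and 347 in 3xTg (187 ± 54.6), with a log2 difference of -0.49 ± 0.12 (limma adjusted p = 0.015). Pcdhb13 had 98.1, 145 and 173 in WT (142 ± 17.8) and 86.5, 114 and 146 in 3xTg (115 ± 17.6), with a log2 difference of -0.33 ± 0.08 (limma adjusted p = 0.0166). For each of the 3, 11 of 12 3xTg libraries lay below the WT mean, and the ranges of the genotypes overlapped. Without the 3 libraries against their label the log2 differences were -0.89 ± 0.15 for Pcdhb6, -0.58 ± 0.11 for Pcdhb7 and -0.37 ± 0.09 for Pcdhb13, each called in limma. Pcdhga3, a gamma A member, had 161, 211 and 262 in WT (209 ± 31.1) and 112, 172 and 205 in 3xTg (169 ± 26.1), all 12 3xTg libraries below the WT mean. Its log2 difference was -0.31 ± 0.09 (limma adjusted p = 0.0344), and its call was lost in 10 of 34 alternative settings, with adjusted p up to 0.112. It was -0.39 ± 0.09 (limma adjusted p = 0.00756) with 21 libraries.

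With 21 libraries, 16 of 56 members passed (limma; 3 higher, 13 lower), against a background of 13.2% of all tested genes (6.31% higher and 6.84% lower). They were 1 alpha, 7 beta and 8 gamma members, including all 8 that passed with 24 libraries. The alpha member was Pcdha9, whose log2 difference was -0.73 ± 0.15 (limma adjusted p = 0.00181), compared with -0.51 ± 0.17 (adjusted p = 0.0701) with 24 libraries. The others were Pcdhb5 at -0.28 ± 0.09, Pcdhb9 at 0.32 ± 0.10 and Pcdhb16 at -0.25 ± 0.08, with Pcdhga2 at -0.60 ± 0.15, Pcdhgb1 at -0.35 ± 0.11, Pcdhgb5 at -0.35 ± 0.11 and Pcdhgc3 at -0.15 ± 0.04 (limma adjusted p between 0.00749 and 0.0388). Apart from Pcdhb9, Pcdhb16 and Pcdhgc3, these genes are named here only because they passed with 21 libraries, and so after their values were seen. Among the 21 libraries, 4 members had values in WT and 3xTg that did not overlap: Pcdhgb6 and Pcdhga11 lower, and Pcdhga4 and Pcdhb1 higher in 3xTg. The background was 1.29% of all tested genes (0.678% higher and 0.607% lower). With all 24 libraries, 0 members had values that did not overlap, against 0.0212% of genes.

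The C-type members did not pass with 24 libraries. Pcdhac1 had a log2 difference of -0.16 ± 0.10 (limma adjusted p = 0.349) and Pcdhac2 of 0.01 ± 0.07 (adjusted p = 0.926), with means of 443 ± 56.8 in WT and 443 ± 39.9 in 3xTg. Pcdhgc3 stood nearest to the threshold, at -0.12 ± 0.04 (limma adjusted p = 0.0591), with 762, 807 and 898 as its lowest, median and highest value in WT and 679, 759 and 845 in 3xTg. DESeq2 called it (adjusted p = 0.0457). Pcdhgc4 differed by 0.16 ± 0.10 (limma adjusted p = 0.314) and Pcdhgc5 by -0.01 ± 0.05 (adjusted p = 0.923), with 1022 ± 91.9 in WT and 1010.3 ± 87.1 in 3xTg. The genotypes overlapped for each of the 5. With 21 libraries, Pcdhac1 differed by -0.14 ± 0.11, Pcdhac2 by -0.01 ± 0.07, Pcdhgc4 by 0.20 ± 0.11 and Pcdhgc5 by -0.01 ± 0.06, none of them called.

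Within single diets, 0 members passed in limma with 24 libraries. The background was 0.0565% of genes on control, 0.155% on ketogenic and 0% on MCT diet. At an unadjusted p under 0.05 there were 12, 13 and 12 of 56 members, against 14.5%, 14.6% and 7.12% of all tested genes. With edgeR 0 members passed in each diet, against 0.0494%, 0.0353% and 0% of genes. DESeq2 called 1 on control (Pcdhb9, log2 difference 0.67, adjusted p = 0.0459), 1 on ketogenic (Pcdhga4, 1.0, adjusted p = 0.00713) and 0 on MCT diet, against 1.23%, 0.996% and 0.155% of genes. Pcdhga11 had log2 differences of -1.72 ± 0.63 on control, -1.93 ± 0.55 on ketogenic and -1.99 ± 0.58 on MCT diet (limma adjusted p = 0.229, 0.101 and 0.38). Each diet holds 1 of the 3 libraries against their label. Without them the differences were -2.60 ± 0.19, -2.34 ± 0.15 and -2.78 ± 0.17 (limma adjusted p = 8.95e-09, 8.79e-10 and 2.49e-10). Here too the p-values belong to a member singled out for its genotype difference and are not independent evidence.

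Pcdhgb6 had log2 differences of -1.06 ± 0.38, -1.22 ± 0.34 and -1.06 ± 0.35 on control, ketogenic and MCT diet with 24 libraries (limma adjusted p = 0.223, 0.091 and 0.445). Those of Pcdhga4 were 0.78 ± 0.24, 0.95 ± 0.21 and 0.78 ± 0.22 (limma adjusted p = 0.158, 0.0568 and 0.38). Without the 3 libraries, these 2 genes and Pcdhga11 passed in every diet. In that setting 4 members passed on control (Pcdhb10 the fourth, 0.62 ± 0.16), 5 on ketogenic (with Pcdha9 at -0.89 ± 0.23 and Pcdhga2 at -0.90 ± 0.23) and 4 on MCT diet (Pcdhb1 the fourth, 1.88 ± 0.34). The backgrounds were 1.74%, 3.62% and 1.77% of genes.

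The diets were compared within each genotype and over both. No member (0 of 56) passed in any of the 9 diet comparisons with limma, edgeR or DESeq2, nor without the 3 libraries. The limma background was 0.00706% of genes for MCT against control in WT and for ketogenic against MCT, and 0% for the other 7. With edgeR it reached 0.00706% for MCT over both genotypes, and with DESeq2 0.0212% for MCT in WT and 0.0141% for MCT over both genotypes and for ketogenic against MCT. With limma on 21 libraries it was 0.0212% for MCT in WT, and 0.0142% for MCT over both genotypes, for its dependence on genotype and for ketogenic against MCT. At an unadjusted p under 0.05, ketogenic against control had 1 of 56 members in WT, 1 in 3xTg and 0 over both genotypes, against 4.62%, 6.69% and 4.99% of all tested genes. MCT against control had 3, 2 and 2 members, against 4.79%, 2.67% and 4.24% of genes. Ketogenic against MCT had 5 members, against 4.75% of genes. The tests of whether the ketogenic and MCT differences depend on genotype had 4 and 5 members, against 6.68% and 2.78% of genes. Comparisons with the control diet share the control libraries.

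The values with the smallest p in each are given as a description. For ketogenic against control in WT they were Pcdhgb8 at -1.31 ± 0.57 and Pcdhb3 at -0.36 ± 0.20 (limma adjusted p = 0.983 for each). In 3xTg they were Pcdha3 at 0.44 ± 0.18 and Pcdhgb2 at -0.47 ± 0.24 (adjusted p = 0.724 and 0.734). For MCT against control in WT they were Pcdhb10 at 0.51 ± 0.16 and Pcdhb9 at 0.48 ± 0.19 (limma adjusted p = 0.989 for each). Pcdhb9, the most abundant beta member, had group means of 221 ± 33.0 on control, 283 ± 74.1 on ketogenic and 309 ± 55.3 on MCT diet in WT, and 351 ± 35.2, 283 ± 68.0 and 332 ± 26.3 in 3xTg. For MCT against control in 3xTg they were Pcdhb19 at -0.30 ± 0.10 and Pcdhga6 at 0.38 ± 0.17 (limma adjusted p = 0.999 for each).

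Over both genotypes, the ketogenic diet gave Pcdhb13 at 0.19 ± 0.10 and Pcdhb14 at 0.14 ± 0.09 (limma adjusted p = 0.946 for each). The MCT diet gave Pcdhb19 at -0.16 ± 0.07 and Pcdhga11 at -0.91 ± 0.43, and the latter was -0.07 without the 3 libraries. Ketogenic against MCT gave Pcdhb16 at 0.28 ± 0.08 and Pcdhb4 at 0.26 ± 0.09 (limma adjusted p = 0.981 for each). The dependence of the ketogenic difference on genotype was 0.75 ± 0.29 for Pcdhb3 and 2.11 ± 0.83 for Pcdhgb8 (limma adjusted p = 0.724 for each), and that of the MCT difference was -0.55 ± 0.24 for Pcdhb10 and -0.52 ± 0.24 for Pcdhb12. With 21 libraries these were 0.52 ± 0.30 for Pcdhb3, 1.25 ± 0.84 for Pcdhgb8, -0.71 ± 0.21 for Pcdhb10 and -0.36 ± 0.27 for Pcdhb12.

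The spread between libraries of the same group was then set beside that of other genes of like abundance. Over 44 members with a mean of 50 to 400, the median within-group SD was 0.247 on the log2 scale, compared with 0.168 over 5111 other tested genes in that range, and 0.239 compared with 0.165 with 21 libraries. Pcdhgb8, a gamma B member annotated as a polymorphic pseudogene, was the member chosen to show this after its values were seen. In WT it had 112, 132, 199 and 109 on control diet, 163, 18.4, 109 and 24.1 on ketogenic diet and 97.0, 86.1, 106 and 16.1 on MCT diet. In 3xTg it had 71.7, 92.7 and 20.0 on control diet, 159.8, 81.0, 66.3, 80.0 and 87.5 on ketogenic diet and 101, 79.0, 77.7 and 80.0 on MCT diet. Values fell below 30 in 4 libraries and above 150 in 3, with the other 17 between 66.3 and 132, and the low ones were WT ketogenic replicates 2 and 4, WT MCT replicate 4 and the library labelled 3xTg control replicate 3, whose Thy1 goes against its label. The 11 libraries with a Thy1 above 20000, which include the library labelled WT MCT replicate 2, all lay between 66.3 and 101. Of its words, 9.18% occurred in another member.

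**Figure D5:**
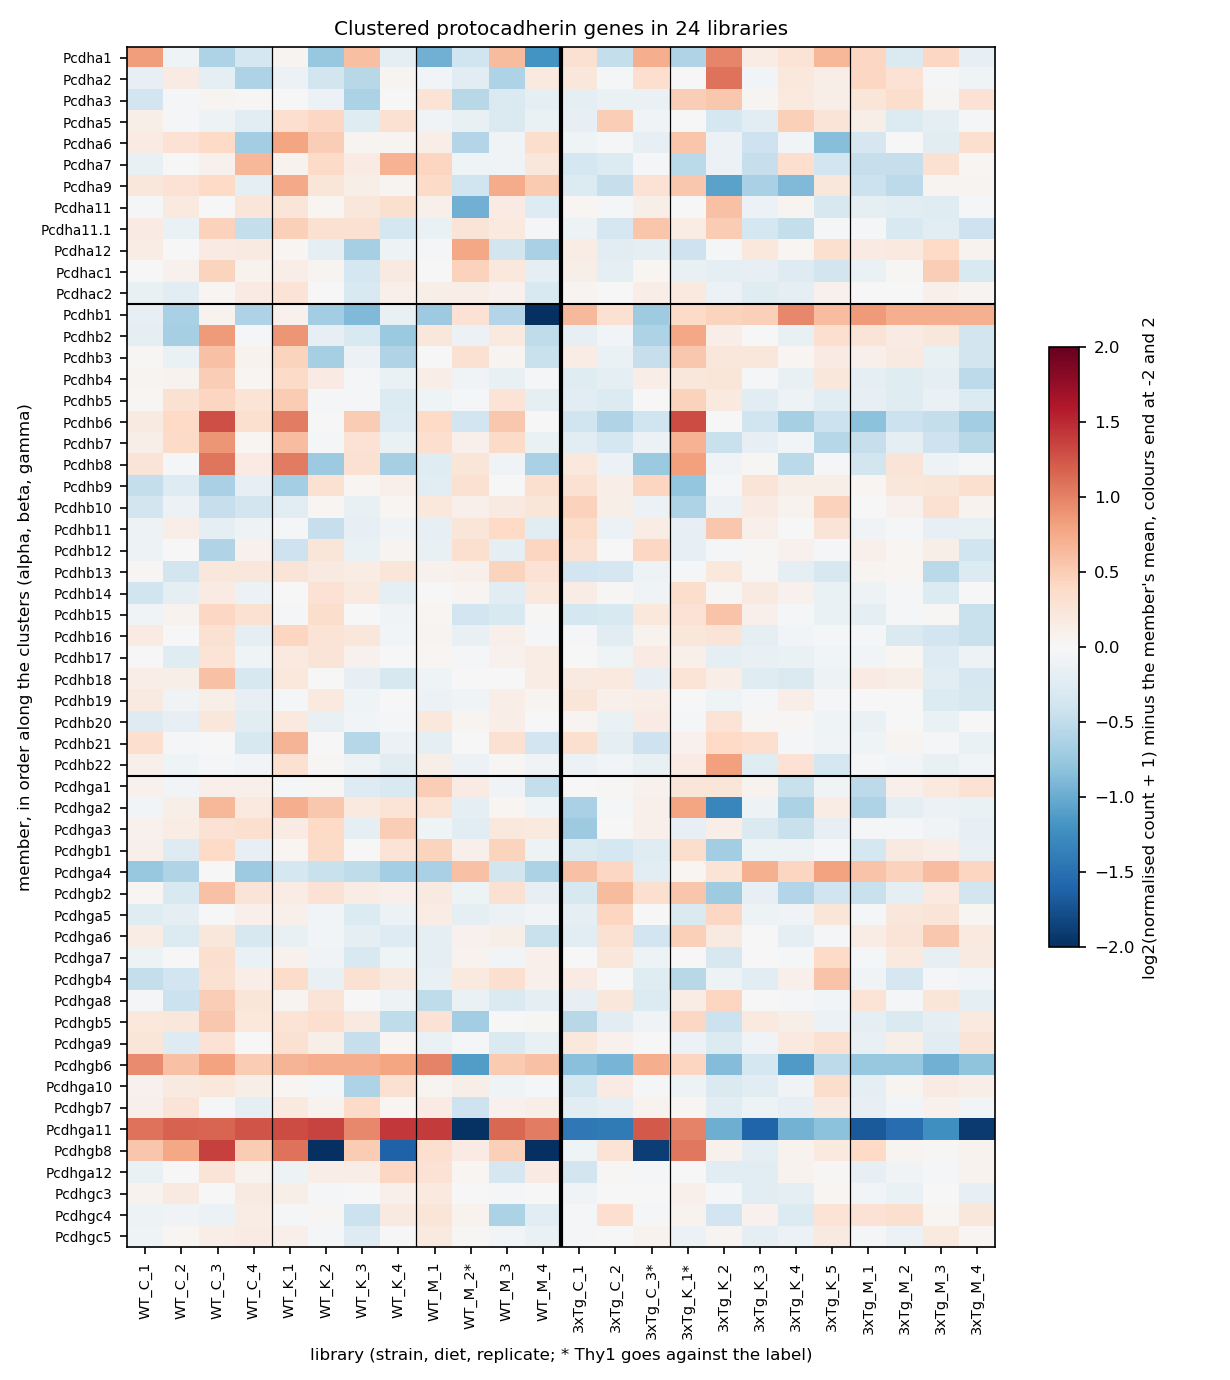
Log2(normalised count + 1) of each of 56 members minus its mean over the 24 libraries, with members in genomic order (rows), libraries by group (columns) and colours that end at -2 and 2. Pcdhga11 and Pcdhgb6 divide the libraries by genotype apart from the 3 whose Thy1 goes against the label, and Pcdhgb8 is low in 3 WT libraries and in the library labelled 3xTg control replicate 3, 1 of those 3.

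Genes that work with the clusters were counted by genotype, averaged over diets. Of 25 regulators of promoter choice, insulation and silencing, 0 were called higher and 3 lower (limma): Wiz, a protein of looping at these and other promoters, at -0.21 ± 0.04 (adjusted p = 0.00503; 542 ± 35.7 in WT and 476 ± 44.6 in 3xTg), and the DNA methyltransferases Dnmt1 at -0.14 ± 0.04 (0.0418) and Dnmt3a at -0.15 ± 0.05 (0.0436). Their median was -0.01. Of 18 signalling partners 1 was called higher, the receptor kinase Ret at 0.76 ± 0.14 (limma adjusted p = 0.0022; 56.8 ± 17.1 in WT and 97.5 ± 21.5 in 3xTg). The partners called lower were 3: the kinase Prkca at -0.22 ± 0.04, the actin regulator Cyfip2 at -0.14 ± 0.04 and the kinase substrate Marcks at -0.11 ± 0.03. The median of the partners was -0.01. Both lists stand beside the 8.1% of all tested genes that were called. With 21 libraries, 4 regulators were called lower, and of the partners 1 was called higher and 3 lower, against 13.2% of genes.

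Of 9 proteases and protease subunits that cut cadherin-family proteins, 1 was called higher, Aph1b at 0.23 ± 0.04 (limma adjusted p = 0.00111; 707 ± 43.6 in WT and 829 ± 59.0 in 3xTg). Of 12 protocadherins outside the clusters, 11 were tested and 1 was lower, Pcdh8 at -0.27 ± 0.06 (limma adjusted p = 0.0057; 919 ± 94.9 in WT and 763 ± 67.3 in 3xTg). Within 500 kb of the clusters on chromosome 18, 25 of 33 neighbouring genes were tested and 2 were higher, the histidyl-tRNA synthetase Hars at 0.15 ± 0.04 (limma adjusted p = 0.0107) and the pattern-recognition receptor Cd14 at 0.70 ± 0.17 (adjusted p = 0.0123; 25.7 ± 7.10 in WT and 41.7 ± 12.1 in 3xTg). The median of the neighbours was 0.05. With 21 libraries 4 neighbours were called higher and 1 lower, against 13.2% of all tested genes. The counts with 24 libraries stand beside 3.71% of all tested genes called higher and 4.38% called lower.

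Among all tested genes outside the clusters, the 5 whose levels followed Pcdhga11 most closely across the 24 libraries were Ccl27a (Pearson's r = 0.98, Spearman's rho = 0.78), Wwox (0.97, 0.77), Serpina3m (0.97, 0.80), Mcm6 (0.97, 0.73) and Gbp2b (0.96, 0.88). Among those that ran most opposite to it were Lgr6 (-0.97, -0.83), Esd (-0.97, -0.82), Tma7 (-0.96, -0.73) and Thy1 (-0.96, -0.71). None of these named genes lies on chromosome 18. Within the clusters the values were 0.955 for Pcdhgb6, -0.907 for Pcdhga4 and -0.748 for Pcdhb1. These correlations describe libraries that share genotype groups, in which Pcdhga11 takes a high and a low level, and carry no test.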

How the data were processed

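The data cover 24 hippocampal libraries. The deposited signal values were made by the authors by dividing gene counts by 1 factor per library, as the deposited values themselves show, and dividing each column by its step gave whole reads (tolerance 0.01). Per the submitters' processing notes, reads were processed with Trimmomatic and STAR on GRCm38. For the gene counter, its annotation, its use of strand and the tool behind the factors, the sources used here give no name. Libraries held 2653427 to 25810846 recovered reads. The 58 members were taken by symbol. Positions and exons came from GENCODE M21.

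Differences were tested with limma 3.58.1 (R 4.3.3; mean-dependent prior variance, two-sided) on log2(normalised count + 1). The fit had 6 group means over 24 libraries and 14162 genes with 10 or more in at least 3 libraries. P-values were adjusted by Benjamini-Hochberg over all of them, with a threshold of 0.05. This fold scale understates changes of low genes. The fit was tested on simulated counts with the same dispersion for every gene and no library against its label. That test therefore does not cover the libraries here that go against their label, or members with a larger spread. Alternatives were edgeR 4.0.16 and DESeq2 1.42.0 on the recovered read counts, other pseudocounts, filters and scalings, a replicate block, and leaving out libraries. Each library is 1 mouse, as far as the labels tell. A limma p-value sets a difference against the spread between libraries within groups, moderated by a trend over all tested genes.

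Named members are Pcdhga11, those called in a comparison, the C-type genes, the highest and lowest of each subgroup and, where none was called, the 2 with the smallest p. From each related list the called genes with the smallest p were named, up to 4, with the 5 genes most and the 5 least correlated with Pcdhga11. The members and lists were chosen with earlier results of these data known. Sequences, and some genes that this rule names, are not reported here.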

Additional observations from a re-analysis of the deposited data

Results flagged for a closer look

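In groups of 4 or 5 libraries, 14 of 160 tests over 32 quantities (members named above and cluster sums) found 1 library far from the rest of its group. Chance flags about 1 in 20 groups, or 8, where tests are independent. These tests were not, since the members share libraries and enter the sums, so the 14 cannot be weighed against the 8. In WT control, replicate 3 stood highest for Pcdhac1 (59.8, others 43.6 to 46.2), Pcdhb4 (141, others 103 to 105), Pcdhb6 (289.8, others 134 to 157), Pcdhga4 (107, others 63.1 to 70.0) and the beta sum (4323, others 3319.9 to 3366). Replicate 2 of that group stood lowest for Pcdhga1 (84.0, others 91.9 to 93.5). The library labelled 3xTg ketogenic replicate 1 stood highest for Pcdhga11 (299, others 48.7 to 84.6), Pcdhb6 (292, others 74.1 to 119) and Pcdhgb8 (159.8, others 66.3 to 87.5).

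In WT MCT, the library labelled replicate 2 stood highest for Pcdhga4 (161, others 68.2 to 83.1), replicate 4 lowest for Pcdhac2 (358, others 466 to 483) and replicate 1 highest for Pcdhgc3 (898, others 762 to 783). In 3xTg MCT, replicate 1 stood highest for Pcdhb1 (21.6, others 19.5 to 19.8) and for Pcdhgb8 (101, others 77.7 to 80.0). Values are normalised counts.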

How the results depend on the processing

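The count of 8 members called between genotypes over all diets was 16 without the 3 libraries whose Thy1 went against the label and 7 to 14 when each library was left out in turn (14 without the library labelled 3xTg ketogenic replicate 1). It was 10 in DESeq2, 8 in edgeR, 9 with quantile normalisation and 7 with no filter. The share of all tested genes called was 8.1% in limma with 24 libraries and 13.2% with 21. It was 10% in DESeq2 and 8.57% in edgeR. For the other settings in this paragraph no such share is given, so their counts cannot be set against a background. Within diets, where limma called 0, the count without the 3 libraries was 4 on control, 5 on ketogenic and 4 on MCT diet. These stand beside 1.74%, 3.62% and 1.77% of all tested genes. DESeq2 called 1 on control and 1 on ketogenic diet, against 1.23% and 0.996% of genes. Leaving out each library gave 0 on control, 0 to 4 on ketogenic and 0 to 4 on MCT diet: 3 on ketogenic without WT MCT replicate 2, 3 without 3xTg control replicate 3 and 4 without 3xTg ketogenic replicate 1, and 4 on MCT without WT MCT replicate 2. The cause was not tested.

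Each diet comparison kept 0. Of the 8 called members, 7 kept direction and call in all alternatives that gave a value, and Pcdhga3 lost its call in 10 of 34, with an adjusted p of 0.112 (limma) at most. The near-zero differences changed sign: Pcdhac2 (0.01) was -0.0051 without the 3 libraries and ranged from -0.021 to 0.042 over left-out libraries, and Pcdhgc5 (-0.01) ranged from -0.036 to 0.0093. The ratio of 3xTg to WT sums stayed within 0.969 to 0.999 for alpha, 0.938 to 0.975 for beta and 0.886 to 0.923 for gamma. With a filter at a mean of 50, Pcdhb1, Pcdhac1 and Pcdha3 gave no value.

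Replicate numbers gave no sign of pairing libraries: the median correlation of deviations was -0.00028 for same-numbered pairs and -0.0028 for pairs of other numbers. Of 55 same-numbered pairs, 11 had a correlation over 0.1. With the replicate block 11 members were called between genotypes over diets and 0 in every other comparison. The share of all tested genes called with the block is not given here, so the 11 cannot be set against a background. The smallest library, 3xTg ketogenic replicate 2, held 1651 reads on members, which limits its low values.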

Other observations

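Libraries with a high or low Pcdhgb8 also stood apart in beta genes. This is a description of libraries chosen after their values were seen, and it has no test. The 7 libraries had a Thy1 of 7553 to 9189, and none of the 11 libraries with a Thy1 above 20000 was among them. Of the 7, those labelled 3xTg ketogenic replicate 1 and 3xTg control replicate 3 have a Thy1 that goes against their label. WT control replicate 3, WT ketogenic replicate 1 and the library labelled 3xTg ketogenic replicate 1 had Pcdhgb8 above 150. These 3 libraries lay above all 21 others for 38 genes besides Pcdhgb8, by which they were chosen, of 14162 tested. Of these, 8 were members: Pcdhb2, Pcdhb3, Pcdhb5, Pcdhb6, Pcdhb7, Pcdhb8, Pcdhb18 and Pcdhga2. Pcdhb2 was 235 to 255 in these 3, and Pcdhb8 was 231 to 275 in these and 160.2 or less elsewhere. They lay below all others for 33 genes, 1 of them a member, Pcdhb9 (167 to 183). The 4 libraries with Pcdhgb8 below 30, WT ketogenic replicates 2 and 4, WT MCT replicate 4 and the library labelled 3xTg control replicate 3, lay below all others for 2 genes besides Pcdhgb8, both of them members: Pcdhb3 (143 to 167) and Pcdhb8 (77.3 to 82.4).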
